A study of Mus musculus with 4 samples.

Results

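The acute response of the mouse dentate gyrus (DG) to a first electroconvulsive stimulation (ECS) was described by the log2 ratio of signals after a single ECS over signals after sham treatment, across all probe sets of the array. A probe set is a group of oligonucleotides that reads 1 transcript. Probe sets with a single gene symbol and a signal over 50 units on at least 1 of both arrays were taken, and hybridisation controls were left out. This gave 11676 of 22626 probe sets, which stand for 7614 of the 12393 genes with a symbol. Of the 11676 probe sets, 10680 were over 50 on both arrays, 828 only after sham and 168 only after ECS. Just inside this limit lay Atp6v1e1, at 49.3 in sham and 50.1 after ECS, and just outside lay Arhgap12, at 47.5 in sham and 50 after ECS.

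RNA of the hippocampal DG of male C57Bl/6 mice was measured on 4 arrays, each hybridised with the pooled RNA of 3 mice. The methods give an age of 8 weeks and name both C57BL/6J and C57BL/6N mice, without saying which went into the pools. The pair compared here was sham treatment and a single ECS, both at 1 h. The other pair was 10 ECS at 48 h and 11 ECS at 1 h. ECS was a bilateral shock of 25 mA and 1 s, in pulses of 0.5 ms at 100 per s, given under isoflurane, and sham mice were handled alike without shock. In 3 of the 4 samples the free-text description contradicts the title, source and treatment field. The latter fit together and were used. With 1 array per group there was no replicate, so no SE, test or p-value could be given, and "2-fold" below is a size, not a test. The only spread available was that between probe sets of the same gene, whose pooled SD was 0.22 on the log2 scale over 2724 genes. It covers probe sets, not mice or arrays. The tissue was dissected and not sorted, so a lower signal from fewer cells of a type and one from less RNA per cell cannot be told apart.

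ECS is used in rodents as a model of electroconvulsive therapy. The seizure drives granule cells (GCs), the principal neurons of the DG, to fire together, and calcium entry through NMDA receptors and voltage-gated channels activates kinases that act on factors already present, such as CREB and SRF. These switch on immediate early genes within minutes and without new protein synthesis. Some encode transcription factors that act on later genes, and others encode synaptic proteins, secreted signals or inhibitors that shut the same kinases down again.

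Both arrays differed by a general shift. The median signal of all probe sets was 69.3 in sham and 56.3 after ECS, and the means after trimming 2% at each end were 238.6 and 214.0. The share of probe sets over 50 units was 55.1% and 51.9%. The 3' to 5' signal ratios of the control probe sets, which rise when RNA is degraded, were 1.024 and 1.055 for Gapdh and 1.909 and 1.922 for Actb. The median log2 ratio was -0.22 over probe sets and -0.23 over genes, where each gene was read by its brightest probe set. The central 95% of genes lay between -0.84 and 0.51. List medians are therefore set against the median of all genes, and the part of the shift in single lower ratios was not tested.

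**Figure D1:**
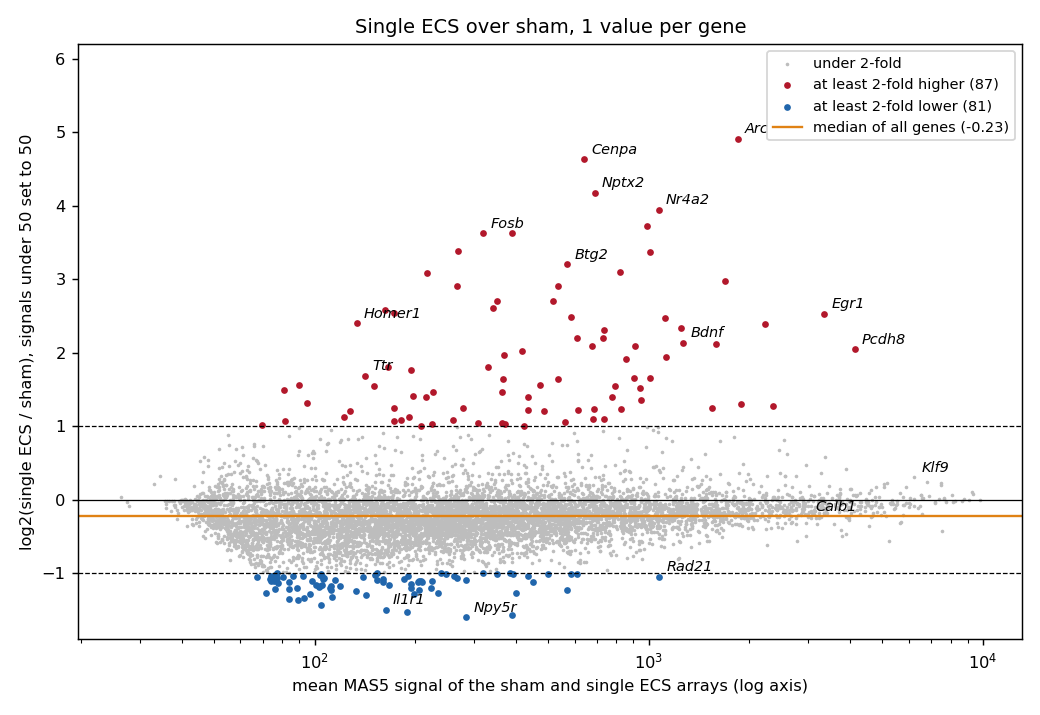
Log2 ratio of single ECS over sham against the mean MAS5 signal of both arrays (log axis), 1 point per gene for 7614 genes, with signals under 50 set to 50. The 87 genes at least 2-fold higher (red) reached 4.91 on the log2 scale, whereas the 81 genes at least 2-fold lower (blue) lay no lower than -1.60, with dim genes capped by the limit of 50. The orange line marks the median of all genes.

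At least 2-fold higher signals were seen for 127 probe sets (1.09% of all members). Signals at least 2-fold lower were seen for 115 (0.985%). By gene, 87 had at least 2-fold higher signals (1.14%) and 81 at least 2-fold lower ones (1.06%). Of the 87 higher genes, 35 were at least 4-fold, 12 at least 8-fold and 3 at least 16-fold higher. The limit of 50 caps the ratio of a dim gene, so sizes were also compared over the genes above it on both arrays. Of these, 40 of 78 higher genes and 1 of 70 lower genes were past 3-fold, and 29 and 0 were past 4-fold. The remaining 9 higher and 11 lower ratios are bounds, and by their own signals 8 and 4 of them differed by more than 3-fold. The 4 lower ones were Nrde2, Trpc2, Zfp53 and Zfp61. The split of calls also depended on how the arrays were scaled. Scaled to the same median, 136 genes passed 2-fold upwards and 16 downwards. Scaled to the same trimmed mean, the counts were 106 and 38, and after quantile normalization 114 and 16. All 87 higher genes were kept under each of these 3 scalings, but 12 of the 81 lower genes were kept under all of them.

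**Figure D2:**
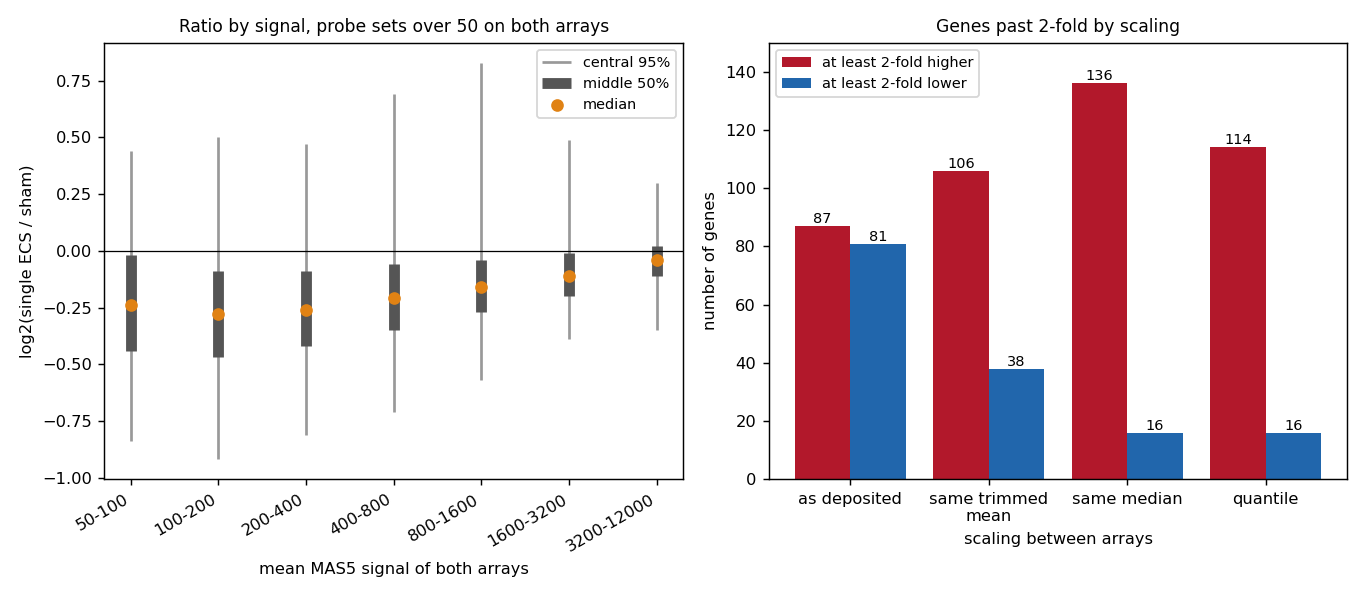
Left, log2 ratio of single ECS over sham in bands of the mean signal of both arrays (MAS5 units), for probe sets over 50 on both arrays, with the median (orange), the middle 50% (thick bar) and the central 95% (thin bar). Right, number of genes past 2-fold upwards (red) and downwards (blue) under 4 scalings between arrays. The shift was -0.28 at 100 to 200 units and -0.04 from 3200 units on, and scaling to the same median left 16 lower genes.

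The shift was larger for dim than for bright probe sets. In the band of 100 to 200 units the median log2 ratio was -0.28 over 2648 probe sets, at 400 to 800 units it was -0.21 over 1749, and at 3200 to 12000 units it was -0.04 over 249. Probe sets at least 2-fold lower numbered 46 in the band of 100 to 200 units, 7 at 400 to 800 and 1 at 800 to 1600. Above 1600 units there were 0. Probe sets at least 2-fold higher were found in every band, with 33 at 400 to 800 units and 2 from 3200 units on.

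Early genes of neuronal activation were frequent among the highest ratios. They were 13 of the 15 highest over 50 on both arrays and 7 of the 10 highest bounds, and the others were Frmd6, Arid5a, Cenpa, Gch1 and Tnfrsf12a. Of 112 measured members of 11 lists of early genes, 43 were at least 2-fold higher and 0 were 2-fold lower, against 1.14% higher among all genes. They were 49.4% of the 87 higher genes. Some members were measured through 1 array only. Fosb, Egr2, Atf3 and Homer1, among others, were over 50 only after ECS, as were 78 of all 7614 genes, and could not count as lower. Fst, Inhbb, Gadd45a and Ccl4 were over 50 only after sham, as were 452 of all genes, and could not count as higher. These lists hold genes known for a response to activity and were written with earlier results of these data known. A high count is therefore a description of the response and not a test of it.

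Among transcription factors, the measured members of the AP-1 family were higher. AP-1 is a dimer of Fos and Jun proteins. All 6 measured members were at least 2-fold higher, with a list median of 2.10 on the log2 scale, 2.33 above all genes. Fos read 139.3 in sham and 1833.3 after ECS, 13.2-fold. Junb read 62.7 and 471.4, 7.52-fold. Jun read 1094.3 and 2683.8 by its brightest probe set, 2.45-fold, and its other probe set read 915.0 and 1434.2. Jund, which resting neurons also express, read 367.5 and 856.9. Fosb and Fosl2 lay under 50 units in sham, at 20.6 and 38.5, so their ratios are lower bounds of at least 12.4-fold and at least 2.02-fold. Both were measured only through the ECS array, so they could not have counted as lower. Fosl1, Batf and Batf3 were not over 50 on either array, at 12.4 and 1.6, 3.1 and 2.3, and 21.3 and 12.6. Jdp2, a repressor of AP-1, was named after its values were seen and read 426.9 and 1128.2, 2.64-fold.

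The Egr factors, zinc finger proteins whose genes carry binding sites for SRF, were also higher. Egr1 read 988.4 in sham and 5712.6 after ECS, 5.78-fold. Egr2 was at 12.3 and 422.6 and Egr4 at 26.5 and 299.1, at least 8.45-fold and at least 5.98-fold. Egr3 read 35.1 and 80.9, short of 2-fold above the limit of 50. The corepressors Nab1 and Nab2 bind Egr proteins and limit their activity. Nab2 read 76.7 and 224.6, 2.93-fold, and Nab1 410.5 and 687.7, a log2 ratio of 0.74. In all, 4 of 6 members were past 2-fold, but Egr2, Egr3 and Egr4 were over 50 only after ECS and could not have counted as lower.

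The Nr4a genes encode orphan nuclear receptors whose activity is set by their amount. Nr4a2 read 130.7 in sham and 2009.0 after ECS, 15.4-fold. Nr4a1 read 176.8 and 1833.3, 10.4-fold. Nr4a3 was not over 50 on either array, at 0.7 and 24.7.

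The promoters of the genes with the highest ratios are shown because CREB acts through the cAMP response element and because many immediate early genes have a TATA box. Printed are the 5 genes with the highest ratios among those over 50 on both arrays that had an entry in the RefSeq promoter table (GRCm38.p6), followed by the gene with the lowest ratio. Each window runs from 250 bases before to 50 after the annotated start, 5′ to 3′ on the strand of the gene. Capitals mark TGACG, the core of the cAMP response element, and TATAAA, each on either strand.
Nr4a2 (chr2:57123954-57124253, minus strand): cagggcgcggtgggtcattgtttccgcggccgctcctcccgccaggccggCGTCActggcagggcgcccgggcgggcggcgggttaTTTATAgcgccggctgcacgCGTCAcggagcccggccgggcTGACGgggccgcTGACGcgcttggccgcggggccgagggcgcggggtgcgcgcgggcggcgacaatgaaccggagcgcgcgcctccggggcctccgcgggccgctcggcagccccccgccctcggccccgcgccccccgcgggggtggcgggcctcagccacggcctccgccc
Fos (chr12:85473640-85473939, plus strand): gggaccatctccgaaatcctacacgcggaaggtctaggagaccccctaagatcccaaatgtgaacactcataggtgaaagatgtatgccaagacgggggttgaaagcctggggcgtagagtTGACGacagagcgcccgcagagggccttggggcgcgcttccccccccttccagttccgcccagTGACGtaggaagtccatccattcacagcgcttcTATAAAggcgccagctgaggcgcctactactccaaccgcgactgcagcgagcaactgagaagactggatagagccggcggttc
Sertad1 (chr7:27486703-27487002, plus strand): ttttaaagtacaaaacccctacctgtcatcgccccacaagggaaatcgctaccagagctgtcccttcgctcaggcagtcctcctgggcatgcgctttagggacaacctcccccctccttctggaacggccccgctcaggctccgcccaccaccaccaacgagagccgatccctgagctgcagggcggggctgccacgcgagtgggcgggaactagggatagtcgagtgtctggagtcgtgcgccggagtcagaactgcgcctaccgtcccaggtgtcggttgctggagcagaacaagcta
Nr4a1 (chr15:101266596-101266895, plus strand): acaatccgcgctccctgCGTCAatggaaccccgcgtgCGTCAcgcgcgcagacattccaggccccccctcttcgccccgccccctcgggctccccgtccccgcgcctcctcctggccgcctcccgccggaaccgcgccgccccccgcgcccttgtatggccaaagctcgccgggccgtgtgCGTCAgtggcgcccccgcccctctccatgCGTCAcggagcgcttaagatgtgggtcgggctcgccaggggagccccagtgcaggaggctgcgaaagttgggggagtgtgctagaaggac
Btg2 (chr1:134079106-134079405, minus strand): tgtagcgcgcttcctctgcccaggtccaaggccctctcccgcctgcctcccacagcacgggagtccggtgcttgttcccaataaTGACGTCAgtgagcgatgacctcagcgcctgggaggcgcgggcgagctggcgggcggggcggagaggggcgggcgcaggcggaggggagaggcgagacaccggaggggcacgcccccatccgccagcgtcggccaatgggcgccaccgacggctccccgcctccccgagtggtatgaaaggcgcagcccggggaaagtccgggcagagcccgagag
Npy5r (chr8:66688045-66688344, minus strand): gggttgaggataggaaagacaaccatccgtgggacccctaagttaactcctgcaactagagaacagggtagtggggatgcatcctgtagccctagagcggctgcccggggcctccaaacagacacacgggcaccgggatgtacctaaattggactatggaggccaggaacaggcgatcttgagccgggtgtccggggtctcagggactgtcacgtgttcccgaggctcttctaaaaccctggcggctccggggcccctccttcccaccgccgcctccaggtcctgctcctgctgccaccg
The windows of Nr4a2 and Nr4a1 held 4 matches to TGACG each. Those of Fos and Btg2 held 2, and in Btg2 both lie in 1 full palindrome, TGACGTCA. Nr4a2 and Fos also had 1 TATAAA each. Sertad1, 12.3-fold higher, had 0 matches to either motif, as had Npy5r, the lowest gene. Arc and Nptx2 had no entry.

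Over all genes with an entry the same letters were counted. Promoter windows were found for 6227 of the 7614 genes, among them 74 of the 87 higher and 65 of the 81 lower genes, on both strands and with any window of a gene counting. TGACG was present in 56.8% of the higher genes, 29.2% of the lower genes and 38.0% of all. The full element TGACGTCA, which holds TGACG on both strands, was present in 8.11%, 3.08% and 3.74%. The 6 higher genes with it were Btg2, Ccnl1, Dusp1, Errfi1, Plk2 and Slc25a25. TATAAA was present in 21.6% of the higher genes, 4.62% of the lower and 8.58% of all. Both TGACG and TATAAA were present in 8 higher genes (10.8%), 0 lower genes and 158 of all (2.54%). The AP-1 site TGANTCA was present in 4.05%, 6.15% and 5.83%, and the Egr site GCGNGGGCG in 18.9%, 15.4% and 13.6%. The CArG box, the site of SRF, which can overlap TATAAA, was present in 4.05%, 1.54% and 1.80%, and the NF-kB site in 21.6%, 16.9% and 12.4%. Counted over single windows instead of genes, TGACG was present in 44.9% of 107 windows of higher genes and in 32.2% of all 8181. A match describes these letters in a short window and shows no binding.

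Other inducible factors were divided. Of 12 measured bZIP and bHLH factors, 3 were at least 2-fold higher, with a list median of 0.55, 0.78 above all genes. Atf3, a stress-induced factor, lay at 15.4 in sham and 520.2 after ECS, at least 10.4-fold. Nfil3, a repressor of clock genes, read 93.7 and 608.4, 6.49-fold. Ddit3, the stress factor also known as CHOP, read 164.9 and 391.7, 2.38-fold. Cebpd had a log2 ratio of -0.94, from 458.6 to 239.1, and Creb1 was not over 50 on either array. Of 15 Klf, Ier and other early regulators, 3 passed 2-fold, all of the Ier genes, which are named for their immediate early response. Ier5 read 342.6 and 1896.9, 5.54-fold, Ier3 54.4 and 135.3, and Ier2 52.5 and 110.2. The Klf genes were all under 2-fold, with Klf10 at 315.5 and 530.6 and Klf3 at 146.7 and 100.0. Srf itself read 276.8 and 481.0, and its partner Elk1, named after its values were seen, 306.3 and 142.6, 2.15-fold lower, with 82.2 and 53.8 on its other probe set.

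Synaptic effector genes held the highest ratio of all measured on both arrays. Arc, whose protein drives glutamate receptor endocytosis, read 118.7 in sham and 3569.6 after ECS, 30.1-fold. Nptx2, a secreted pentraxin that gathers AMPA receptors, read 72.1 and 1305.3, 18.1-fold. A second probe set of Nptx2 read 18.9 and 82.4. Pcdh8, also known as arcadlin, an adhesion protein that activity induces at synapses, read 1612.6 and 6649.2, 4.12-fold. Grasp, a scaffold of metabotropic receptors also called tamalin, read 216.9 and 999.7, and Synpo, an actin-binding protein of the spine apparatus, 358.0 and 1352.9. In this list 6 of 13 measured genes passed 2-fold, and the median was 0.83, 1.06 above all genes. Syt4, Plat, Rheb and Dclk1 lay between 0 and 1 on the log2 scale.

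Homer1 was read by 3 probe sets that went separate ways. The one with the brightest mean signal read 3.3 in sham and 264.1 after ECS, at least 5.28-fold. Another read 34.0 and 100.1, and the third 51.5 and 40.4. Homer1 makes long forms that crosslink receptors and a short form, Homer1a, that activity induces from an earlier end of the transcript. Which form each probe set reads was not tested. Homer1 was the only one of 31 higher genes with several probe sets in which a probe set did not lie above 0. Over all genes, called by their brightest probe set or not, 11 had a probe set past 2-fold and another not on that side of 0. In 15 of the 31, every probe set passed 2-fold.

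Bdnf, the neurotrophin of activity-dependent plasticity, read 471.2 in sham and 2069.4 after ECS, 4.39-fold. Its other probe set read 349.9 and 1531.1. Inhba, the activin A subunit gene, read 126.1 and 947.1, 7.51-fold. Smad7, which inhibits signalling of the TGF-beta family to which activin belongs, read 95.8 and 586.0, 6.12-fold. These were the 3 of 10 trophic and secreted signal genes past 2-fold. Vegfa read 125.8 and 226.6, a log2 ratio of 0.85, and Hbegf, Igf1 and Tgfb2 had log2 ratios of -0.12, -0.07 and 0.09. Fgf2, Gdnf, Lif, Bmp2, Nog and Adm were not over 50 on either array.

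Inhibitors of the MAP kinase pathway, which the same signals induce, passed 2-fold in 4 of 12 measured members. Spry2, an inhibitor of receptor tyrosine kinase signalling, read 345.2 and 1471.0, 4.26-fold. The MAP kinase phosphatases Dusp1 and Dusp6 read 150.8 and 588.0, 3.90-fold, and 405.8 and 1184.0, 2.92-fold. Errfi1, an inhibitor of the EGF receptor, read 466.6 and 1784.9, 3.83-fold. The family did not move as 1 block. Spry1 had 101.9 units in sham and 54.4 after ECS, Dusp14 413.0 and 281.0, and Spred2 1418.2 and 1421.5. Dusp1, which dephosphorylates p38 and JNK as well as ERK, and Errfi1 were 2 of the genes with TGACGTCA.

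Of regulators of G proteins and inducible small GTPases, 3 of 9 passed 2-fold. Rgs2 and Rgs4 speed up the shutdown of G protein signals. Rgs2 read 414.3 and 2089.8, 5.04-fold, with 191.7 and 1120.1 on its other probe set. Rgs4 read 435.0 and 1373.1, 3.16-fold. Rgs7 and Rgs14 had log2 ratios of -0.39 and -0.32. Rasl11b, a Ras-like GTPase gene, read 238.8 and 630.5.

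Growth arrest and survival genes passed 2-fold upwards in 8 of 19 measured members, and the list median was 0.82, 1.05 above all genes. Sertad1, a coregulator of E2F factors, read 58.5 and 720.3, 12.3-fold. Btg2, an antiproliferative adaptor of mRNA deadenylation, read 111.7 and 1027.9, 9.20-fold, with 135.7 and 552.4 on its other probe set. Gadd45b, which takes part in active DNA demethylation at growth factor genes of GCs, read 172.1 and 1471.9, 8.55-fold, and 88.2 and 1562.7 on its other probe set. Gadd45g read 247.4 and 1226.3, whereas Gadd45a had 55.3 and 30.7. Plk2, a kinase of homeostatic synaptic weakening, read 710.7 and 3729.1, 5.25-fold. Sgk1 read 1372.1 and 3328.9, 2.43-fold. The survival gene Mcl1 lay just under 2-fold, at 712.7 and 1413.2.

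Inflammatory early genes were mostly not measured or near 0. Ptgs2, which encodes COX-2 and is expressed by excitatory neurons as well as immune cells, read 381.4 and 3001.5, 7.87-fold, and 99.9 and 778.8 on its other probe set. It was the only one of 8 measured members past 2-fold, and the list median was 0.09, 0.32 above all genes. Il1b, Il6, Tnf, Ccl2, Icam1 and Socs3 were not over 50 on either array. Nfkbia read 1392.6 and 1257.0.

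**Figure D3:**
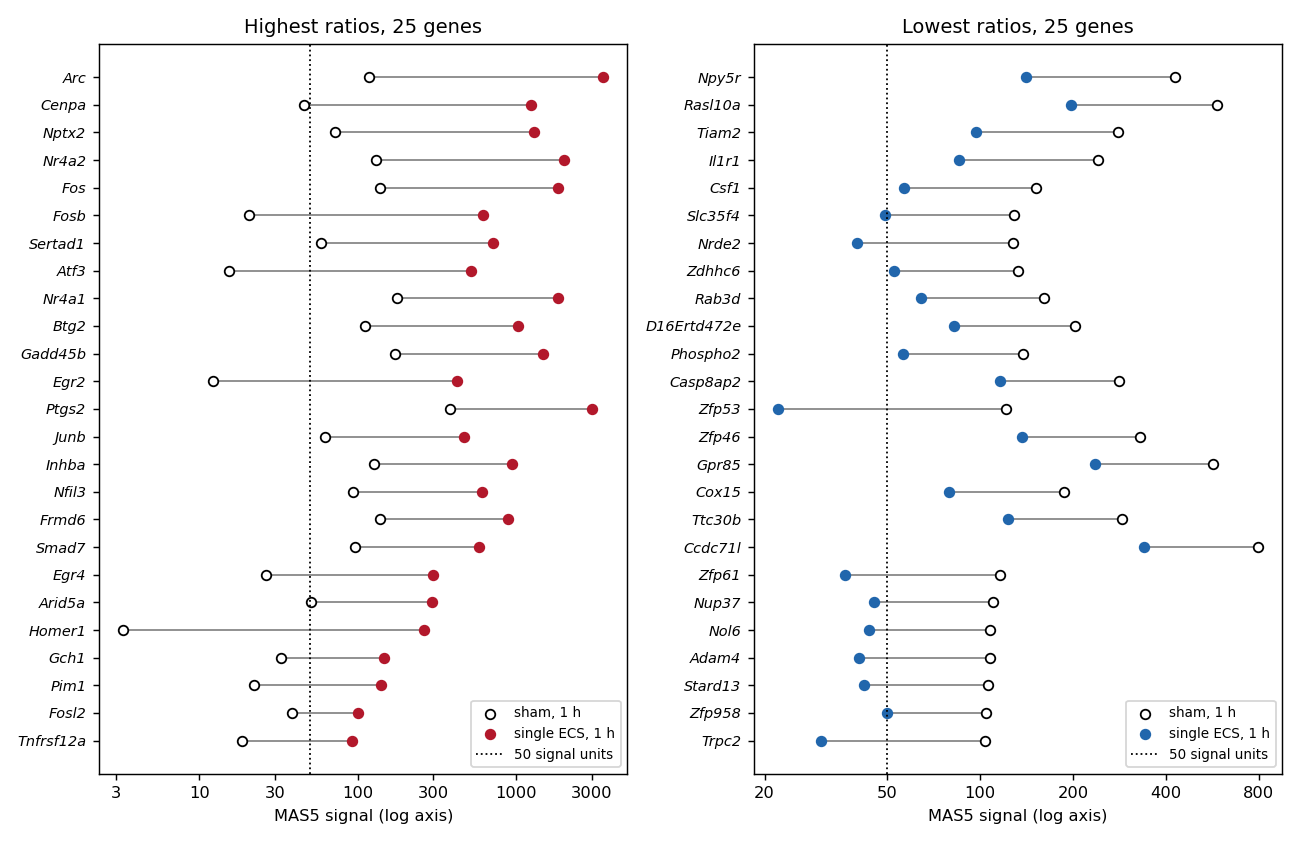
MAS5 signals (log axis) in sham (open circles) and after a single ECS (filled circles) for the genes with the highest (left) and lowest (right) ratios, 1 line per gene and 1 array per circle. Each side holds the 15 most extreme genes over 50 on both arrays and the 10 most extreme of those over 50 on 1 array. Sham signals of the higher genes ran from 3.3 for Homer1 to 381.4 for Ptgs2, and the dotted line at 50 marks the limit under which a ratio is a bound.

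A high ratio was also seen outside the early lists. Cenpa, the centromeric histone H3 variant, read 45.8 in sham and 1237.5 after ECS, at least 24.8-fold. In the same list of cell cycle genes, Cenpa was 1 of 13 measured members past 2-fold upwards. Kif18a read 6.7 and 62.4, at least 1.25-fold higher, a ratio capped by the limit of 50. Of the 13 members, 4 lay above 0 and 9 below. Ccne1, cyclin E1, read 115.8 and 56.1, 2.06-fold lower. The replication helicase genes Mcm4, Mcm6 and Mcm7 had log2 ratios of -0.64, -0.69 and -0.44. Mcm2 read 84.9 and 34.1, so its ratio is a bound, at least 1.70-fold lower. The list median was -0.44, 0.21 below all genes. The mitotic genes Mki67, Top2a, Cdk1, Aurkb, Bub1 and Plk1 were not over 50 on either array.

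Outside every list lay 36 of the 87 higher genes. The rule for named genes took 3 of them. Frmd6, a FERM domain protein of the Hippo pathway, read 138.2 and 896.6, 6.49-fold, Arid5a, an RNA-binding factor, 50.5 and 294.1, 5.82-fold, and Gch1, the enzyme that starts tetrahydrobiopterin synthesis, 33.0 and 147.0, at least 2.94-fold. The following were named after their values were seen. Fbxo33, a substrate adaptor of ubiquitin ligases, read 598.5 and 2584.0, 4.32-fold, and 586.3 and 2310.0 on its other probe set. Midn, which brings early gene proteins to the proteasome, read 120.7 and 331.9. Neat1, the long noncoding RNA that scaffolds paraspeckles, read 147.3 and 512.7, 3.48-fold. Etv3 and Erf, ETS repressors, read 177.9 and 556.8, and 166.2 and 353.2. Tiparp, an ADP-ribosyltransferase, was at least 2-fold higher on all 3 of its probe sets, with 239.9 and 705.9 on the brightest. Mknk2, a kinase of the translation factor eIF4E, read 365.1 and 755.8, and Slc25a25, a mitochondrial ATP carrier, 76.8 and 167.6.

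Lists of other responses had few genes past 2-fold. For a short list, 0 calls is near the shares of all genes, 1.14% higher and 1.06% lower. Of 16 clock genes, Per1, Per2 and Nfil3 were higher. Per1 read 258.2 and 1098.6, 4.26-fold, and Per2 238.3 and 488.7, 2.05-fold. Dbp, Tef and Hlf, the output factors of the clock, had log2 ratios of -0.56, -0.56 and -0.40. Per1, Sgk1 and Errfi1 were the 3 of 14 glucocorticoid target genes past 2-fold, and the others lay under it. Fkbp5 read 581.9 and 431.4, Tsc22d3 879.1 and 766.0, and Zbtb16 460.9 and 255.4, whereas Klf9 read 5565.1 and 6874.0 and Ddit4 877.4 and 1038.6. Of the 14, 8 lay above 0 and 6 below, and the list median was 0.09, 0.32 above all genes. Of 14 FoxO target genes, 0 passed 2-fold, with Sesn1 at 990.2 and 511.3, Ccng2 at 794.0 and 450.2, and Irs2 at 203.6 and 373.4.

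Among 12 heat shock genes, Dnajb1 passed 2-fold, at 485.6 and 1391.2, 2.87-fold, with 107.2 and 428.9 on its other probe set. Its partner chaperone genes Hspa8 and Hsp90aa1 read 6904.5 and 8055.4, and 5473.6 and 5833.7. Of 17 endoplasmic reticulum chaperones, 0 passed 2-fold. The highest was Hspa5, also known as BiP, at 1854.3 and 3237.7, a log2 ratio of 0.80. Among 18 genes of glucose metabolism, Slc16a1, the monocarboxylate transporter MCT1, read 409.8 and 961.3, 2.35-fold, and Slc2a1 1084.6 and 1588.5, whereas Aldoa, Pgk1, Tpi1 and Eno2 had log2 ratios between 0.02 and 0.06. In this list 9 genes lay above 0 and 9 below, with Hk2 lowest at 88.9 and 48.2, at least 1.78-fold lower. Of 14 neuropeptide and granin genes, 0 passed 2-fold, and Scg2, secretogranin II, lay highest at 1892.3 and 3026.2. Npy read 585.5 and 608.2.

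**Figure D4:**
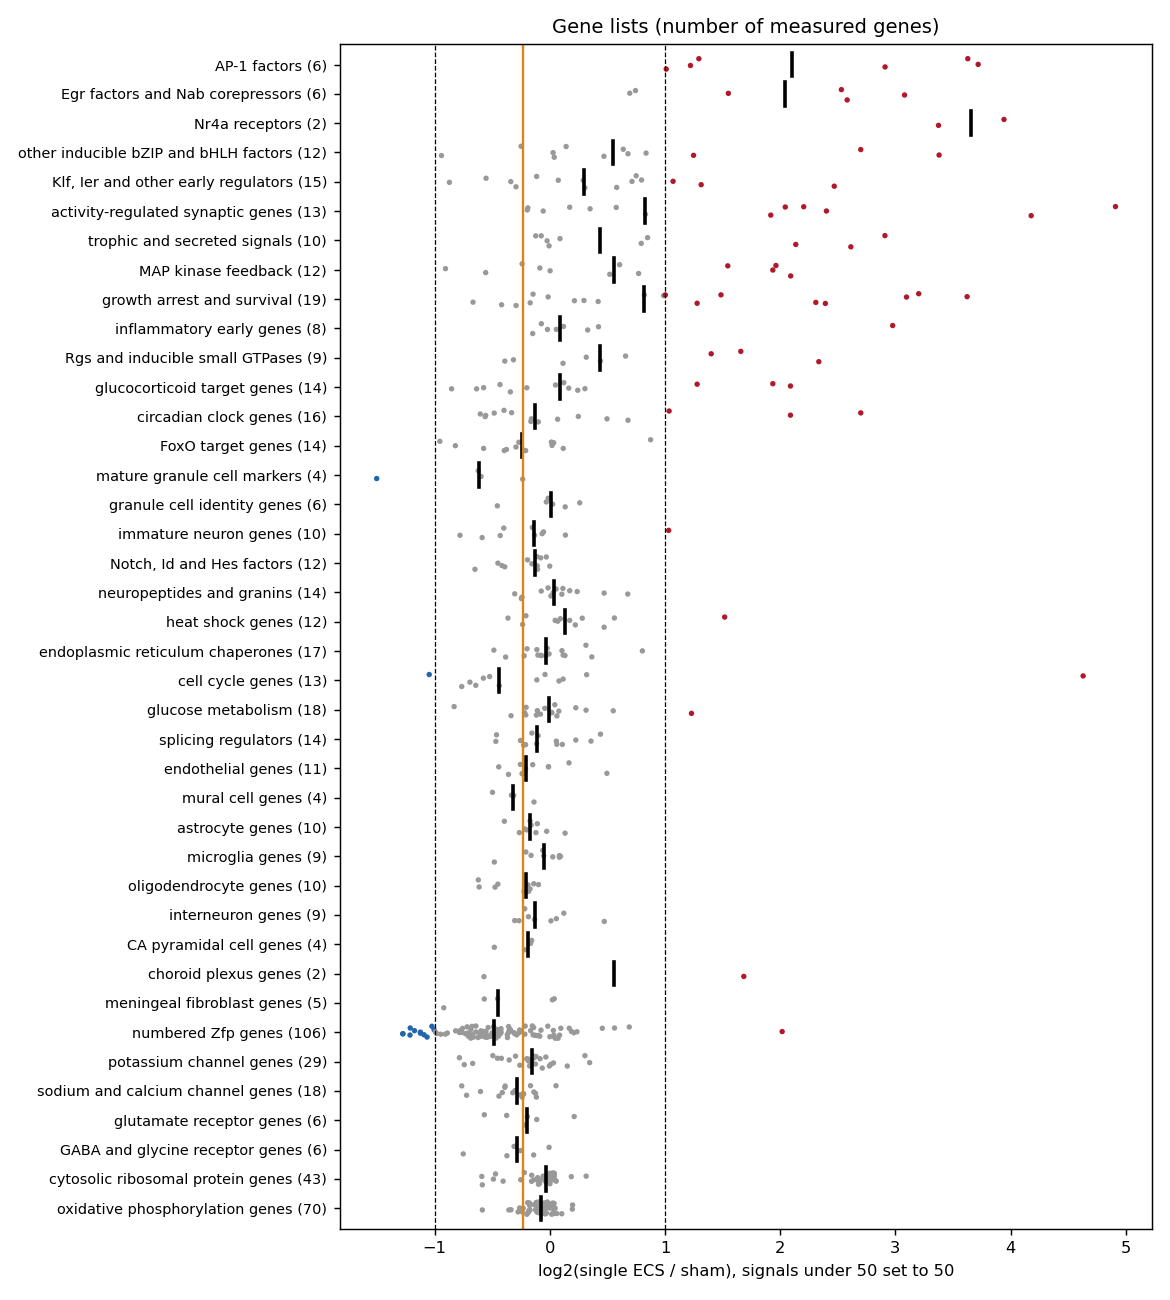
Log2 ratio of single ECS over sham for the measured members of each gene list, 1 point per gene (red at least 2-fold higher, blue at least 2-fold lower), with the list median (black bar) and the median of all genes (orange line, -0.23). The lists of AP-1, Egr and Nr4a factors had medians of 2.10, 2.04 and 3.66, whereas the lists of astrocyte, oligodendrocyte and endothelial genes had medians of -0.17, -0.21 and -0.21, beside the orange line.

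As deposited, the maturation markers of GCs had lower signals, from a small shift to the 2-fold range. Il1r1, the interleukin 1 receptor, read 241.0 in sham and 85.1 after ECS, 2.83-fold lower. Tdo2, the tryptophan-degrading enzyme, read 290.2 and 188.8, Dsp, desmoplakin, 1701.6 and 1125.4, and Calb1, calbindin, 3234.2 and 2747.1. Their log2 ratios were -1.50, -0.62, -0.60 and -0.24, so Calb1 lay at the median of all genes. Against probe sets of like brightness Calb1 lay lower. At mean signals of 1600 to 3200 units, where Calb1 lay, the median was -0.11 and the lower quartile -0.2. The lower quartiles in the bands of Il1r1, Tdo2 and Dsp were -0.47, -0.42 and -0.27, so all 4 genes lay below theirs. The median of all genes became 0.05 with arrays scaled to the same median, so the lower signal of Calb1 depends on the scaling. The list median of 4 genes was -0.61, 0.38 below all genes, and it stayed below 0 under the other scalings tried. The study chose these genes, so the list is not independent evidence of its direction. Genes of GC identity had a median of 0.01 over 6 genes, 0.24 above all genes. Prox1, the GC fate factor, read 68.6 and 69.8 and Neurod1 1086.0 and 1300.9. Of 10 immature neuron genes, 1 was past 2-fold, Sox11 at 243.9 and 498.9, while Dcx read 91.1 and 69.1 and Tbr1 239.6 and 139.6. Notch, Id and Hes factors had 0 of 12 past 2-fold, and Sox2 read 439.4 on both arrays.

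Among genes over 50 on both arrays, Npy5r, the neuropeptide Y receptor Y5, had the lowest ratio, at 427.6 in sham and 141.1 after ECS, 3.03-fold, with 127.0 and 31.2 on its other probe set. Npy2r, the Y2 receptor, named after its values were seen, read 816.2 and 403.7, and Trhr, the receptor of thyrotropin-releasing hormone, named likewise, 284.3 and 131.8. Rasl10a, a Ras-like GTPase gene, read 584.6 and 197.5, 2.96-fold lower, and Tiam2, an activator of Rac, 280.2 and 97.2, 2.88-fold lower. Csf1, the growth factor of microglia, read 152.1 and 56.5, and Rab3d, a vesicle GTPase gene, 160.8 and 64.1. Gpr85, an orphan receptor gene, was at least 2-fold lower on all 3 of its probe sets, with 567.6 and 234.8 on the brightest. The others of the 15 lowest over 50 on both arrays were Zdhhc6, D16Ertd472e, Phospho2, Casp8ap2, Zfp46, Cox15, Ttc30b and Ccdc71l, between 2.34-fold and 2.53-fold lower.

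The 12 lower genes kept under all 3 scalings were Npy5r, Rasl10a, Tiam2, Il1r1, Csf1, Zdhhc6, Rab3d, D16Ertd472e, Slc35f4, Nrde2, Zfp53 and Zfp61. The last 4 were under 50 units after ECS, so their ratios are bounds, such as at least 2.42-fold lower for Zfp53, at 121.1 and 22.1. Of the other bounds, Nup37, Adam4, Stard13, Zfp958, Trpc2 and Nol6 had between 103.8 and 109.9 units in sham and between 30.4 and 49.7 after ECS. Nol6 was the only one of 27 lower genes with several probe sets in which a probe set lay on the other side, at 50 in sham and 66.8 after ECS. In 6 of the 27, every probe set passed 2-fold. Rad21, a cohesin subunit, named after its values were seen, read 1451.1 and 700.5, 2.07-fold lower, but its other probe sets read 471.4 and 327.8, and 56.6 and 46.3.

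The zinc finger genes with a number, many of which encode repressors of the KRAB family, had a median log2 ratio of -0.48 over 106 genes as deposited, 0.25 below all genes. At least 2-fold lower were 11 of the 106, against 1.06% of all genes, and 1 was higher. Most of these calls ended when the arrays were scaled. The 11 became 2 with the same median, 5 with the same trimmed mean and 3 after quantile normalization, and Zfp53 and Zfp61 were the 2 kept under all of them. The list median lay between 0.21 and 0.30 below that of all genes under these scalings. Zfp46 read 330.3 and 136.6, Zfp386 311.1 and 134.4, and Zfp346 286.6 and 131.7. The 1 higher gene was Zfp948, at 165.2 and 668.8, 4.05-fold. The list's median sham signal was 149.6, which is in the range where the shift between arrays was largest, and the part of the shift in this list was not tested.

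Markers of most other cells gave ratios near the median of all genes, -0.23. Astrocyte genes had a median of -0.17 over 10, oligodendrocyte genes -0.21 over 10, microglia genes -0.05 over 9, interneuron genes -0.13 over 9, endothelial genes -0.21 over 11 and CA pyramidal cell genes -0.19 over 4, with 0 past 2-fold in each. Mural cell genes had -0.32 over 4 and meningeal fibroblast genes -0.45 over 5, also with 0 past 2-fold, and the lowest of these was Igf2, at 142.7 and 75.4. For lists this short, 0 calls is near the shares of all genes, 1.14% higher and 1.06% lower. The summed signals in sham and after ECS were 13672.8 and 11959.8 for astrocyte genes, and 3502.9 and 3284.3 for microglia genes. Blood cell genes were not over 50 on either array. Past 2-fold was Ttr, the transthyretin gene of the choroid plexus, at 67.2 and 215.9, 3.21-fold higher, with 32.0 and 100.6 on a second probe set and 20.6 and 74.6 on the third. Of the other choroid plexus genes, Kl read 74.3 and 38.4, and Folr1, Kcne2, Otx2 and Sostdc1 were not over 50 on either array.

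The other pair of arrays, 11 ECS over 10 ECS, shares no array with this one and gave the same genes a second reading. That pair had 59 genes past 2-fold upwards (0.775%) and 12 past it downwards (0.158%), around a median of -0.09. Of the 87 genes higher after the first ECS, 48 were at least 2-fold higher again (55.2%), and these were 81.4% of the 59. All but Ttr lay above 0. The median log2 ratio of the 87 was 1.66 after the first ECS and 1.16 after the 11th. Of the 81 lower genes, 7 were at least 2-fold lower again (8.64%), 77 lay below 0, and the medians were -1.11 and -0.56. With a median of -0.09 in that pair, more of all genes lay below 0 than above it. Ccne1, Nol6, Stard13 and Vav3 did not lie below 0.

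**Figure D5:**
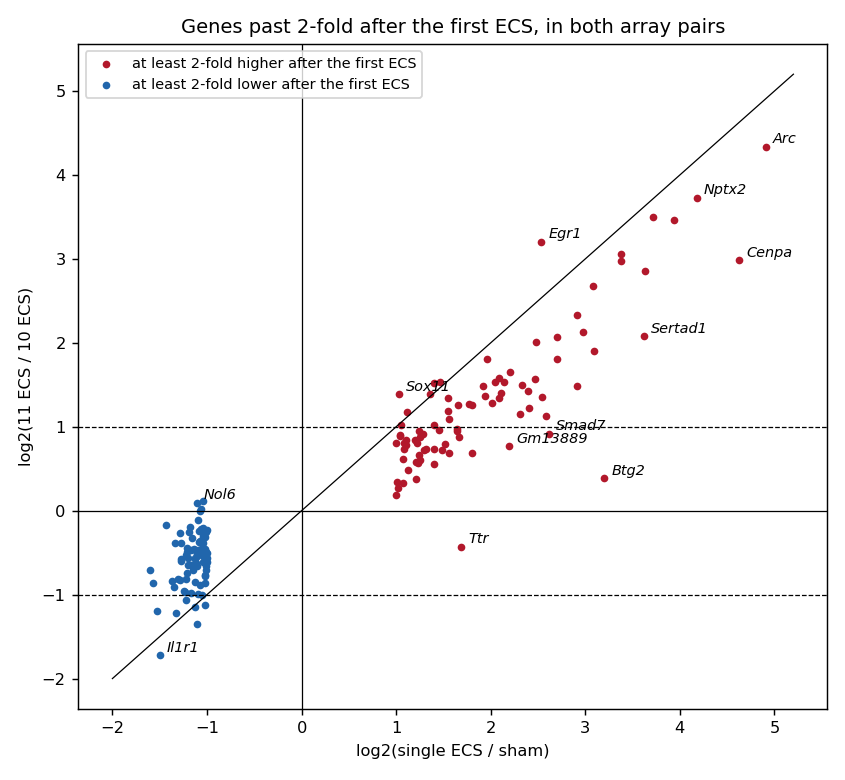
Log2 ratio of 11 ECS over 10 ECS against log2 ratio of single ECS over sham, for the 87 higher (red) and 81 lower (blue) genes after the first ECS, 1 point per gene. The diagonal marks equal ratios and the dashed lines 2-fold. Of the red points 81 lie under the diagonal, and Btg2, at 3.20 and 0.39, lies farthest below it.

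The 43 higher genes of the early lists had a median log2 ratio of 2.33 after the first ECS and 1.49 after the 11th, and the 36 outside every list had 1.38 and 0.86. At least 2-fold higher again were 32 of the 43 (74.4%) and 12 of the 36 (33.3%), but the latter started closer to the 2-fold line, so these shares were not compared further. Arc read 67.5 after 10 ECS and 1360.1 after 11, Nptx2 126.6 and 1673.5, and Fos 82.8 and 937.2. Btg2 differed most, with 122.1 and 159.4, a log2 ratio of 0.39 against 3.20 after the first ECS. Smad7 had 94.7 and 179.1, 0.92 against 2.61. The ratio was larger after the first ECS in 81 of the 87 genes, which were chosen by that ratio. In the 59 genes chosen by the second pair it was larger in 42. Egr1, Sox11, Rasl11b, Midn, Dnajb5 and Dyrk3 were the 6 of the 87 with the larger ratio after the 11th ECS. Sox11 read 322.5 and 843.0 there, a log2 ratio of 1.39 against 1.03. Egr1 read 538.9 and 4963.1, a log2 ratio of 3.20 against 2.53. In sham and after the first ECS, Egr1 read 988.4 and 5712.6. Its larger ratio after the 11th ECS thus had a lower starting signal and also a lower final one. For this gene, the paper reports from PCR that repeated ECS significantly suppressed the induction. No test of the differences between the pairs of arrays was possible with 1 array per group.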

How the data were processed

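Per the labels and the study's methods, the authors pooled the total RNA of 3 mice per group, amplified 100 ng by in vitro transcription from the 3' end, applied it to Mouse Genome 430A 2.0 arrays and computed signals with Microarray Suite 5.0. The deposited values are MAS5 intensity signals, 1 for each probe set on each array, and not log-transformed. How the arrays were scaled to each other is not given in these sources. Detection and change calls were not used.

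Sample titles gave the groups. The table held 22626 probe sets beside 64 controls, which were left out, as were 691 probe sets with several symbols and 1555 with none. Symbols came from the platform annotation, and 0 had to be updated. Signals under 50 were set to 50 before the log2 ratio was taken, so a ratio with an array at or under 50 is only a lower bound ("at least N-fold"). A gene was read by its brightest probe set over the 4 arrays. Probe sets with the suffixes _x_at and _s_at, 848 and 913 of the members, can also read related transcripts. The number of arrays limits the precision, and with 1 array per group no test was run. Python 3.11.15, numpy 2.4.6, pandas 2.3.3 and matplotlib 3.10.9 were used, and the scripts were tested on simulated data.

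Named were the 15 highest and 15 lowest ratios of genes over 50 on both arrays, the 10 highest and 10 lowest bounds, up to 6 members farthest from 0 in each of 42 gene lists, and genes fixed by name. Other genes are said to have been named after their values were seen, and further list members are given only as members of their list. The members and lists were chosen with earlier results of these data known. The alternatives were another floor or none, scaling to the same median or trimmed mean, quantile normalization, other filters on dim probe sets, and other ways to give 1 value per gene.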

Additional observations from a re-analysis of the deposited data

How the results depend on the processing

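The count of probe sets at least 2-fold higher, 127, became 207 when arrays were scaled to the same median and 241 with that scaling and a floor at the 25th percentile of all signals. The count at least 2-fold lower, 115, became 25 with median scaling, 25 after quantile normalization, 58 with the same trimmed mean, 71 with median scaling and the lower floor, 239 with the lower floor alone and 239 with no floor. It was 13 with median scaling and a signal over 50 on both arrays, an alternative chosen after seeing the data. Counted by gene, 87 were higher and 81 lower with the brightest probe set, and 82 and 63 with the median over probe sets. The median log2 ratio, -0.22, became 0.068 with median scaling at either floor and 0.082 in the added alternative. The other counts of probe sets stayed within 1.5 times. The other medians stayed within the spread between probe sets of a gene, 0.22. That spread is about as large as the median itself, so this does not show that the shift was kept. The median was -0.024 after quantile normalization, -0.071 with the same trimmed mean and 0 with no filter on low signals. Of the log2 ratios of named genes under the alternatives, 312 stayed within that spread, 175 moved by more and 1 was counted as reversed. The last was that of Homer1, which was -0.043 when the probe set brightest in sham was read. Ratios counted as moved can include small ones that changed sign, as the median of all probe sets did with median scaling. Of 49 named genes past 2-fold, 9 lower ones were no longer past it with median scaling and 9 with quantile normalization, and 0 higher ones under either. Gch1 and Homer1 were no longer past it when read by the probe set brightest in sham, and Pim1 and 5 lower genes when read by the median over probe sets. The cause of these differences beyond the scaling and floor themselves was not tested. No paired analysis was possible because each group had 1 array. The array has no counts, and signals near 50 units limit what can be said of dim genes.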

Other observations

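The 4 lists of channels and of glutamate, GABA and glycine receptors, which set the excitability of GCs, had 0 measured members past 2-fold. Among all genes 1.14% were higher and 1.06% lower, so lists of this size would hold few calls at the general share. The channel gene Trpc2 and receptor genes such as Npy5r, which are in none of these lists, were past it. Of 29 measured potassium channel genes, the median log2 ratio was -0.15 as deposited and 0.13 with arrays scaled to the same median. Kcns2, a silent Kv subunit, was lowest, at 112.1 in sham and 65.1 after ECS, and Kcna1, the Kv1.1 channel, highest, at 1434.1 and 1822.4. Of 18 sodium and calcium channel genes 17 lay below 0 as deposited, as did 6379 of all 7614 genes. The list median was -0.28, which became 0.02 with median scaling. Cacna2d1, an auxiliary calcium channel subunit, read 157.1 and 92.5. The 6 glutamate receptor genes had a median of -0.20 and the 6 GABA and glycine receptor genes one of -0.28, which became 0.10 and 0.02 with median scaling. Gabrd, the delta subunit of extrasynaptic GABA-A receptors in GCs, read 155.2 and 92.2, and Gria3, an AMPA receptor subunit, 906.0 and 611.2.

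Housekeeping lists lay close together. The 43 cytosolic ribosomal protein genes had a median of -0.03 and the 70 oxidative phosphorylation genes one of -0.08, with 0 past 2-fold in both, and 0.27 and 0.22 with median scaling. Of 14 splicing regulators 0 passed 2-fold, with Srsf6 and Srsf5 highest, at 882.3 and 1197.3, and 2159.6 and 2767.6, and Cirbp, the cold-inducible RNA-binding protein, lowest, at 431.5 and 311.9. Actb read 6372.4 and 6656.9.

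Probe sets without a single symbol held a few ratios past 2-fold as well, at shares not above those of the members, 1.09% higher and 0.985% lower. Of 553 over 50 with no symbol, 3 were at least 2-fold higher and 5 lower, with a median of -0.22. The highest of them read 112.2 in sham and 878.9 after ECS, 7.83-fold, and the next 74.5 and 551.2. Of 415 with several symbols, 0 were at least 2-fold higher and 2 lower.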
